A study of Homo sapiens with 12 samples.

Results

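This account covers 42 genes of cholesterol and fatty acid metabolism in IOSE80 cells, an immortalised line derived from normal human ovarian epithelium. The genes were taken from a fixed list of names, and each was matched to the locus that carries its name, or to the locus with the highest mean level where several did. All 42 had a locus among the 30574 loci of each library. They comprise 18 sterol synthesis enzymes, 6 genes of sterol sensing and transport, 9 of fatty acid synthesis, elongation and desaturation, 3 of fatty acid activation and 6 of fatty acid oxidation.

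Cells were exposed for 28 days to bisphenol A (BPA, a plastics chemical with weak oestrogenic activity) at 0.25 nM, to BPA at 2500 nM, to E2 (the usual short name of estradiol) or to 0.1% DMSO. The sources used here give no E2 dose and name no solvent for BPA or E2, so DMSO is taken as the vehicle. Libraries numbered 3 for BPA 0.25 nM, 3 for BPA 2500 nM, 2 for E2 and 3 for DMSO; another E2 library is labelled and was not analysed here. Every group is the same single cell line, and the labels do not tie replicates to separate cultures; p-values therefore reflect only how far these libraries spread, which may be technical.

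Cholesterol is built from acetyl-CoA through the mevalonate pathway, squalene and lanosterol. When membrane sterol is low, SCAP escorts the SREBP transcription factors, encoded by SREBF1 and SREBF2, out of the endoplasmic reticulum, and INSIG1 and INSIG2 hold them back when sterol is plentiful. SREBF2 mainly drives sterol synthesis and SREBF1 mainly drives fatty acid synthesis, in which ACLY, ACACA and FASN make palmitate and the ELOVL, SCD and FADS enzymes lengthen or desaturate fatty acids. Steroid-producing cells of the ovary use cholesterol as the starting material of their hormones.

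The sterol regulatory element, the short DNA word read by SREBP, was searched as TCACNCCAC, beside the CCAAT box (CCAAT) and the GC box (GGGCGG), on both strands of the 250 bases before each annotated start. RefSeq promoters (GRCh38.p14) were matched for 38 of the 42 genes. ACAT2, FDFT1, SQLE and FASN were not matched. TCACNCCAC stood before 2 of the 38 genes (5.26%, against 1.09% of 27305 genes in the table), CCAAT before 23 (60.5%, against 37.0%) and GGGCGG before 35 (92.1%, against 46.2%). CCAAT was found for 13 of 15 sterol synthesis enzymes and for 0 of 6 fatty acid oxidation genes. TCACNCCAC was found for 0 of 15 sterol synthesis enzymes and for 0 of 8 genes of fatty acid synthesis, elongation and desaturation. Some genes have several annotated starts, and a match before any of them was counted, so that genes with more starts had more chances of a match. The 27305 genes were not selected to match the 42 in expression, and the part of this in the shares was not tested. A match is a description of letters and not a binding site. The lack of a match does not show that a gene has no sterol regulatory element, since other spellings and other positions were not searched.

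The promoters shown are that of SCD, the only one of the 42 genes called changed in any comparison, and those of the 2 genes whose window holds TCACNCCAC, SREBF2 and ACSL1. Capitals mark the searched words on either strand. The windows are chr10:100346983-100347232 (plus strand, SCD), chr22:41832855-41833104 (plus strand, SREBF2) and chr4:184805554-184805803 (minus strand, a start inside the ACSL1 locus).
SCD: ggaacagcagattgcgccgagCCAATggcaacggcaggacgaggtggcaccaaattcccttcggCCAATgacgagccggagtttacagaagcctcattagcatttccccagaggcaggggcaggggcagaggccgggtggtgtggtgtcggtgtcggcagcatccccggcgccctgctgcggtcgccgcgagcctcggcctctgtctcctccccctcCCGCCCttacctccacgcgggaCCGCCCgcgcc
SREBF2: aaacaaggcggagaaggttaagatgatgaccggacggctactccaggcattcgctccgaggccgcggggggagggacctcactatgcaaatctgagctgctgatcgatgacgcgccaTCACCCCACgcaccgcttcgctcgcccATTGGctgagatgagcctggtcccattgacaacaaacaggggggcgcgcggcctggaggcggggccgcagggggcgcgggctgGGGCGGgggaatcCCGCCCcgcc
ACSL1: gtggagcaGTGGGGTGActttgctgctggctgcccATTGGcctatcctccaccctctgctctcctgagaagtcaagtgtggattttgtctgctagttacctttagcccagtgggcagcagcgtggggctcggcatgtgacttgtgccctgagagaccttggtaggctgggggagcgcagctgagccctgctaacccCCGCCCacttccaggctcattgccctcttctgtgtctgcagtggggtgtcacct

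The SCD window holds 2 CCAAT words and 2 GC boxes and no TCACNCCAC. The SREBF2 window holds 1 TCACNCCAC, 1 CCAAT and 2 GC boxes, and the ACSL1 window holds 1 of each.

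The libraries were alike in their summed FPKM (fragment counts divided by transcript length and library size), which lay between 206719.3 and 213663.3. Loci with any FPKM numbered 21223 to 23696. Each library's median Pearson r with the other libraries, across loci, was 0.9896 to 0.9917, lowest in E2 replicate 2. Mitochondrial loci took 12.619% to 12.656% of the FPKM with BPA 0.25 nM, 12.944% to 13.615% with BPA 2500 nM, 14.0% and 12.265% with E2, and 13.633% to 14.314% with DMSO; their part in the results was not tested. Read depth is unknown. Of 12 ovarian surface markers, 3 reached 1 FPKM in every library: KRT18 (19.76 to 27.02 FPKM), NR2F2 (2.89 to 3.61) and KRT8 (1.06 to 1.70). CDH1, WT1, MSLN, UPK3B, BNC1 and GATA4 did not exceed 0.12 FPKM in any library. Of 6 mesenchymal and fibroblast markers, VIM (623.53 to 827.91 FPKM), COL3A1 (22.97 to 33.04) and PDGFRA (5.0 to 5.5, at a locus that also names FIP1L1) were present, while COL1A1, COL1A2 and DCN did not exceed 0.56 FPKM. Markers of fat cells (PLIN1 and FABP4), leukocytes (PTPRC) and endothelium (CDH5) did not exceed 0.04 FPKM, though EGFL7 of the endothelial list stood at 5.95 to 10.86 and CD68 of the leukocyte list at 43.00 to 49.68, at a locus that also names SENP3 and EIF4A1. STAR, which moves cholesterol into mitochondria for steroid synthesis, and CYP19A1, the aromatase gene, did not exceed 0.03 FPKM, while FOXL2, a granulosa cell factor, stood at 5.36 to 7.70. These are RNA pools of whole cultures, in which fewer cells of a kind and less RNA per cell cannot be told apart.

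All 42 genes were expressed well enough to be tested, with means over the 11 libraries of 2.33 FPKM (INSIG2) to 179.2 FPKM (SCD). FPKM is scaled by transcript length, so levels may be set roughly against each other. However, 6 of the 42 loci also name another coding gene and 16 lie opposite a locus of at least 1 FPKM. For these the FPKM may not be that of the named gene alone. The stearoyl-CoA desaturase gene SCD stood highest, followed by ACLY (77.5 FPKM on average), which supplies acetyl-CoA, HADHA (67.1), a subunit of the mitochondrial trifunctional protein, and FDPS (57.9), which makes farnesyl diphosphate. Genes of fatty acid synthesis had a median mean level of 31.2 FPKM and those of fatty acid oxidation 30.6, against 14.55 for the sterol synthesis enzymes and 14.75 for sterol sensing and transport. The value of 31.2 is that of FADS2, whose locus also names FEN1, and the nearest genes of that role were FADS1 at 20.0 and ELOVL5 at 45.6. INSIG2, the carnitine palmitoyltransferase gene CPT2 (3.11 FPKM) and the mevalonate kinase gene MVK (3.40) were lowest.

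**Figure D1:**
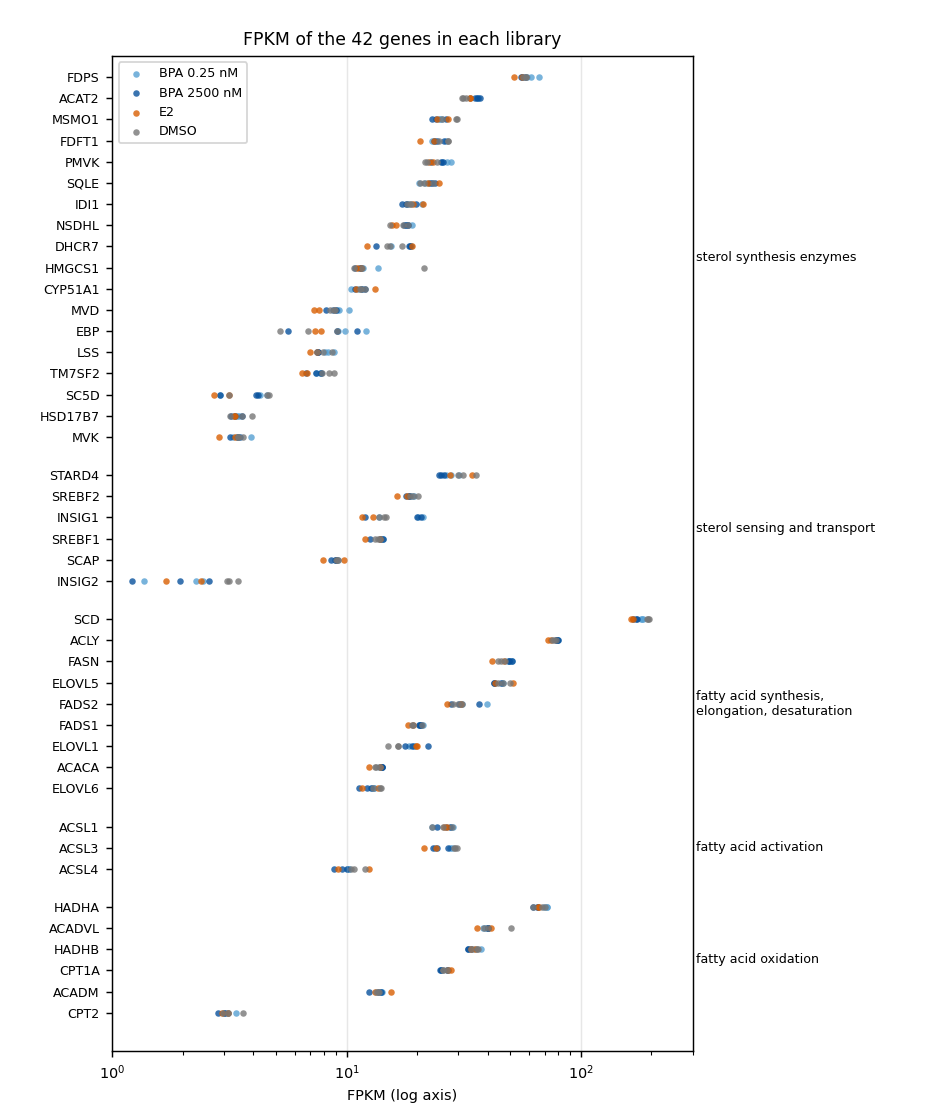
FPKM of each of the 42 genes (log axis) in every library, grouped by role and ordered by mean level; 1 point is 1 library, coloured by group. SCD lies highest at 163.28 to 196.06 FPKM and INSIG2 lowest at 1.21 to 3.44, and the differences between genes are far larger than those between groups.

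Differences between groups were tested with limma on log2(FPKM + 1), a scale that understates the change of low genes, over 12182 loci. A gene was called changed at a Benjamini-Hochberg adjusted p under 0.05, adjusted over all loci. Changes are given as log2 values with their standard error (SE). With BPA 0.25 nM, 0 of the 42 genes were called (0.0164% of all loci, 2 loci), with BPA 2500 nM 1 (1.3% of all loci, 158 loci), and with E2 1 (0.419% of all loci, 51 loci). Between BPA 2500 nM and BPA 0.25 nM, 0 of the 42 were called (0.0657% of all loci, 8 loci). The called gene was SCD in both cases.

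The 95% intervals were set against a bound of 1.5-fold on FPKM + 1, within which genes of low FPKM stay more easily. The interval lay within that bound in either direction for 38 of the 42 genes with BPA 0.25 nM (86.7% of all loci) and 38 with BPA 2500 nM (85.2% of all loci). It did so for 37 with E2 (81.9%) and 41 between the BPA doses (86.9%). The exceptions against DMSO were HMGCS1, EBP, INSIG1 and INSIG2, joined by SC5D for E2, and EBP between the doses. The median standard deviation (SD) within groups was 0.074 on the log2 scale for the 42 genes and 0.104 for all loci.

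SCD, which puts the first double bond into stearate and palmitate, fell in the BPA 2500 nM and E2 groups. Its FPKM was 184.26, 181.14 and 182.29 with BPA 0.25 nM, 166.38, 173.08 and 172.61 with BPA 2500 nM, 163.28 and 166.64 with E2, and 191.98, 196.06 and 193.55 with DMSO. Every treated library lay below every DMSO library, and the BPA 2500 nM and E2 libraries also lay below those of BPA 0.25 nM. Its mean fell by 12.0% relative to DMSO with BPA 2500 nM (log2 change -0.18 ± 0.03 SE, limma adjusted p = 0.0374) and fell by 14.9% with E2 (-0.23 ± 0.04, limma adjusted p = 0.0374). The change with BPA 0.25 nM, -0.09 ± 0.03, did not pass (limma adjusted p = 0.51), nor did that between BPA 2500 nM and BPA 0.25 nM, -0.10 ± 0.03 (limma adjusted p = 0.533).

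Both SCD calls stood close to the threshold. The BPA 2500 nM call was lost in 9 of the 11 fits that left out 1 library, all but those without E2 replicate 1 or 2, where limma adjusted p was 0.033 and 0.0326; the highest was 0.158, without BPA 2500 nM replicate 1. The E2 call was lost in all 11 (limma adjusted p 0.0552 to 0.112), while the log2 change itself stayed between -0.25 and -0.22. With rescaling by the median of ratios, no filter on low values, no trend or robust setting, or only the compared groups fitted, both calls were lost (limma adjusted p 0.0676 to 0.107 for BPA 2500 nM and 0.0642 to 0.327 for E2). SCD (GRCh38, chromosome 10, 100347233 to 100364826, plus strand) has a pseudogene, SCDP1, listed at 0.08 to 0.44 FPKM as a locus of its own.

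ELOVL1, which elongates saturated and monounsaturated fatty acids to very long chains, had 18.41, 19.34 and 19.42 FPKM with BPA 0.25 nM, 18.94, 22.27 and 17.79 with BPA 2500 nM, 19.98 and 19.70 with E2, and 16.56, 14.96 and 16.59 with DMSO. All 8 treated libraries were above all DMSO libraries. The log2 changes were 0.24 ± 0.08, 0.27 ± 0.08 and 0.29 ± 0.09 for BPA 0.25 nM, BPA 2500 nM and E2, and none passed (limma adjusted p = 0.449, 0.119 and 0.149). These comparisons share their DMSO libraries, and ELOVL1 is among the genes picked for a small p in them. The share of all loci with every treated library on the same side of DMSO was not counted, for ELOVL1 or for other genes described so.

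FASN, the multi-enzyme fatty acid synthase, had 50.26, 50.97 and 48.66 FPKM with BPA 0.25 nM, 50.61, 49.12 and 49.33 with BPA 2500 nM, 47.08 and 41.89 with E2, and 44.36, 47.35 and 45.49 with DMSO. Both BPA groups were above the DMSO libraries, while 1 E2 library lay within the DMSO range and the other below it. The log2 changes for BPA 0.25 nM, BPA 2500 nM and E2 were 0.13 ± 0.05, 0.12 ± 0.05 and -0.04 ± 0.05 (limma adjusted p = 0.518, 0.269 and 0.783); the last was 0.041 without E2 replicate 2.

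ACACA, the acetyl-CoA carboxylase that commits carbon to fatty acids, had 14.09, 13.69 and 13.92 FPKM with BPA 0.25 nM, 14.20, 14.12 and 14.20 with BPA 2500 nM, 12.45 and 13.87 with E2, and 13.35, 13.83 and 13.26 with DMSO. The BPA 2500 nM libraries lay above those of DMSO, the other groups overlapped DMSO, and the log2 changes were 0.04, 0.07 and -0.03 with BPA 0.25 nM, BPA 2500 nM and E2. ACLY spanned 72.50 to 80.05 FPKM, with log2 changes of 0.05, 0.04 and -0.06; both BPA groups lay above the DMSO libraries and the E2 libraries below them. The delta-6 desaturase gene FADS2 had 39.75, 30.78 and 30.97 FPKM with BPA 0.25 nM, 30.27, 36.72 and 28.00 with BPA 2500 nM, 30.82 and 26.86 with E2, and 29.76, 28.41 and 31.11 with DMSO. Single libraries in both BPA groups were high, and the groups overlapped. The FADS2 locus also names FEN1 and lies opposite FADS1, and it is not stated in any source used here if counting used the strand.

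Of the 9 genes of fatty acid synthesis, elongation and desaturation, 6 had a positive and 3 a negative log2 change with BPA 0.25 nM (median 0.052, all loci 0.001), and likewise 6 and 3 with BPA 2500 nM (median 0.059, all loci -0.027). With E2, 2 were positive and 7 negative (median -0.046, all loci -0.007). After rescaling by the median of ratios the BPA 2500 nM and E2 medians were 0.107 and -0.014, and the E2 median was -0.08 without E2 replicate 1 and -0.069 without DMSO replicate 2. Besides SCD, ELOVL6, which elongates palmitate to stearate, was lower with BPA 2500 nM without overlap (log2 change -0.16 ± 0.06, limma adjusted p = 0.228).

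**Figure D2:**
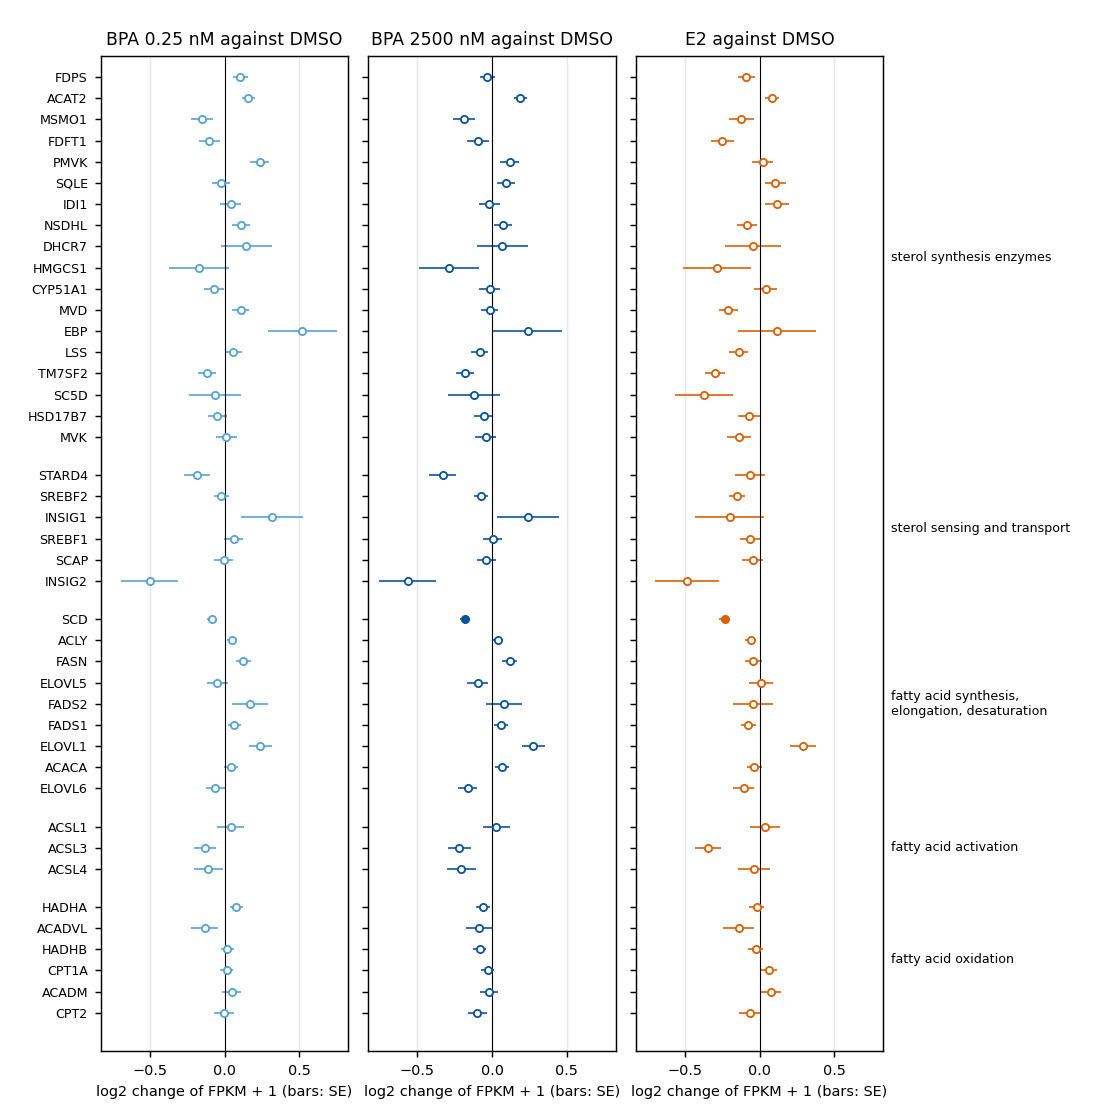
Log2 change of each of the 42 genes against DMSO with BPA 0.25 nM, BPA 2500 nM and E2 (bars are SE of the limma fit; filled points have an adjusted p under 0.05, open points do not). SCD is the only filled point, at -0.18 for BPA 2500 nM and -0.23 for E2. INSIG2 and ELOVL1 lie on the same side of 0 in all 3 panels without passing. Many other genes do so too, among them ACAT2, TM7SF2 and ACSL3, and the 3 panels share their DMSO libraries.

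In the upper part of the sterol pathway, ACAT2, the cytosolic thiolase that joins 2 acetyl-CoA units, was the member with the next smallest p for BPA 2500 nM. It had 33.67, 36.21 and 36.44 FPKM with BPA 0.25 nM, 36.19, 37.00 and 35.27 with BPA 2500 nM, 33.62 and 33.50 with E2, and 31.52, 30.94 and 32.38 with DMSO. All treated libraries lay above all DMSO libraries. The log2 changes for BPA 0.25 nM, BPA 2500 nM and E2 were 0.16 ± 0.04, 0.19 ± 0.04 and 0.08 ± 0.05 (limma adjusted p = 0.39, 0.0688 and 0.453). With the libraries rescaled by the median of ratios the BPA 2500 nM change was 0.24 and passed (limma adjusted p = 0.0485). ACAT2 overlaps TCP1 and SOD2 on the opposite strand.

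PMVK, the phosphomevalonate kinase, had 27.99, 26.81 and 25.63 FPKM with BPA 0.25 nM, 25.32, 25.77 and 22.85 with BPA 2500 nM, 23.49 and 22.42 with E2, and 21.61, 22.11 and 24.21 with DMSO. Only the BPA 0.25 nM group was clear of the DMSO libraries. Its log2 change there, 0.23 ± 0.06, had the smallest p of the 42 genes for that dose and did not pass (limma adjusted p = 0.377).

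HMGCS1, which makes HMG-CoA from acetoacetyl-CoA, had 11.56, 11.73 and 13.57 FPKM with BPA 0.25 nM, 10.81, 11.57 and 11.34 with BPA 2500 nM, 11.47 and 11.09 with E2, and 10.75, 11.64 and 21.43 with DMSO. DMSO replicate 3 stood apart from all the others. The log2 changes of -0.17 ± 0.20, -0.29 ± 0.20 and -0.28 ± 0.23 with BPA 0.25 nM, BPA 2500 nM and E2 did not pass, and without that library they were 0.121, 0.006 and 0.011.

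Further along, MVD, which decarboxylates mevalonate diphosphate, had 9.07, 10.24 and 9.24 FPKM with BPA 0.25 nM, 8.99, 8.78 and 8.17 with BPA 2500 nM, 7.59 and 7.29 with E2, and 8.82, 8.50 and 8.93 with DMSO. It was lower than DMSO with E2 and higher with BPA 0.25 nM, without overlap (log2 changes -0.21 ± 0.06 and 0.11 ± 0.06, limma adjusted p = 0.159 and 0.6). The squalene synthase gene FDFT1 was also lower with E2, at 23.59 and 20.51 FPKM, against 27.09, 24.92 and 27.00 with DMSO (log2 change -0.25 ± 0.08, limma adjusted p = 0.176). The squalene epoxidase gene SQLE had 21.71, 20.34 and 22.20 FPKM with BPA 0.25 nM, 23.24, 23.91 and 22.66 with BPA 2500 nM, 22.31 and 24.76 with E2, and 20.55, 23.38 and 21.48 with DMSO. Its groups overlapped DMSO in every case, and its log2 changes were -0.02, 0.09 and 0.11.

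Among the later enzymes, which turn lanosterol into cholesterol, TM7SF2, a sterol C14-reductase, had 7.43, 7.70 and 7.75 FPKM with BPA 0.25 nM, 7.75, 7.37 and 6.73 with BPA 2500 nM, 6.80 and 6.45 with E2, and 8.85, 8.43 and 7.86 with DMSO. All treated libraries lay below all DMSO libraries, and E2 was lowest. The log2 changes were -0.12 ± 0.06, -0.18 ± 0.06 and -0.30 ± 0.07 (limma adjusted p = 0.582, 0.177 and 0.0775). The locus also names VPS51, so its FPKM is not that of TM7SF2 alone. EBP, a sterol isomerase whose locus also names TBC1D25, ranged from 5.22 FPKM in a DMSO library to 12.15 in a BPA 0.25 nM library, and its change with BPA 0.25 nM, 0.52 ± 0.23, did not pass (limma adjusted p = 0.544). DHCR7, the last reductase, ranged from 12.24 to 19.09 FPKM, with both ends in the E2 group.

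Of the 18 sterol synthesis enzymes, 10 had a positive and 8 a negative log2 change with BPA 0.25 nM (median 0.026), 6 and 12 with BPA 2500 nM (median -0.025), and 6 and 12 with E2 (median -0.088). The medians of all loci were 0.001, -0.027 and -0.007. The BPA 2500 nM median was 0.023 after rescaling, so it has no settled direction, and under the 18 alternatives the BPA 0.25 nM median lay between 0.0 and 0.061 and the E2 median between -0.126 and -0.056. The enzymes did not differ in 1 direction. With E2, ACAT2 and IDI1 were above every DMSO library, as were 12.2% of all loci. MVK, MVD, FDPS, FDFT1, LSS, TM7SF2 and SC5D were below every DMSO library, as were 16.2% of all loci.

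**Figure D3:**
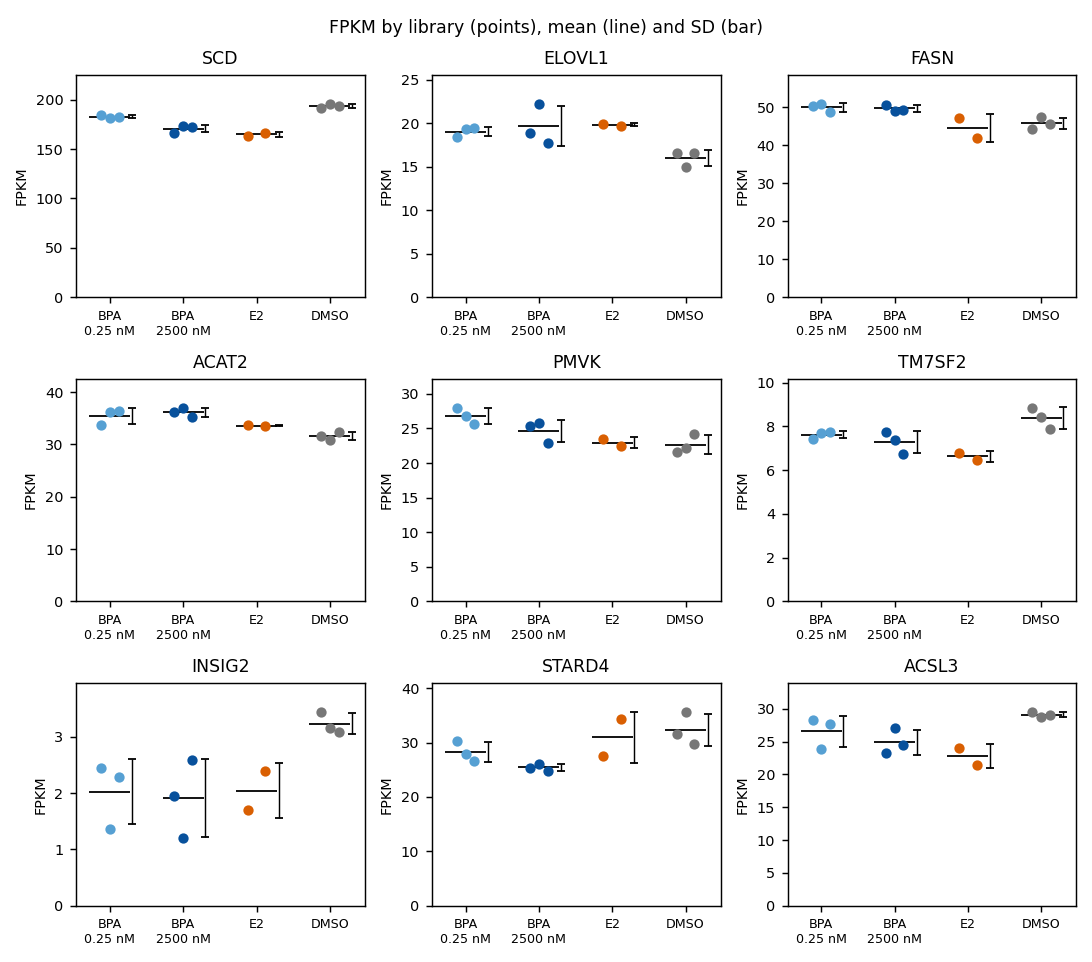
FPKM in each library (points) of SCD, ELOVL1, FASN, ACAT2, PMVK, TM7SF2, INSIG2, STARD4 and ACSL3, with the group mean (line) and SD (bar); each axis starts at 0. INSIG2 lies at 1.21 to 2.59 FPKM in the treated libraries and at 3.09 to 3.44 in DMSO, and the SCD means of the treated groups differ from that of DMSO by -5.8% to -14.9%.

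Among the sterol sensors, INSIG2 had 2.44, 1.36 and 2.28 FPKM with BPA 0.25 nM, 1.95, 1.21 and 2.59 with BPA 2500 nM, 1.70 and 2.39 with E2, and 3.44, 3.16 and 3.09 with DMSO. Every treated library lay below every DMSO library, with a wide spread among the treated ones. The means differed from DMSO by -37.3%, -40.7% and -36.7% with BPA 0.25 nM, BPA 2500 nM and E2. The log2 changes of -0.50 ± 0.19, -0.56 ± 0.19 and -0.48 ± 0.21 were among the largest of the 42 genes and did not pass (limma adjusted p = 0.51, 0.184 and 0.322).

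INSIG1 had 21.22, 20.13 and 13.69 FPKM with BPA 0.25 nM, 20.04, 11.96 and 20.75 with BPA 2500 nM, 12.98 and 11.68 with E2, and 13.72, 14.47 and 14.70 with DMSO. The high values, near 20 FPKM, occurred in 2 of 3 libraries of each BPA dose, while the DMSO libraries lay close together. The log2 changes were 0.32 ± 0.21, 0.24 ± 0.21 and -0.20 ± 0.23 with BPA 0.25 nM, BPA 2500 nM and E2, with limma adjusted p = 0.69, 0.577 and 0.743. The SD within the BPA groups, 4.07 and 4.88 FPKM, was as large as their difference from the DMSO mean.

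The transcription factor genes differed by small amounts. SREBF1 had 14.28, 14.04 and 14.11 FPKM with BPA 0.25 nM, 14.24, 13.95 and 12.60 with BPA 2500 nM, 13.94 and 11.97 with E2, and 13.87, 13.16 and 13.56 with DMSO. SREBF2 had 19.03, 19.38 and 18.59 FPKM with BPA 0.25 nM, 17.92, 18.42 and 18.50 with BPA 2500 nM, 18.18 and 16.41 with E2, and 20.12, 19.26 and 18.56 with DMSO. The SREBF2 libraries of BPA 2500 nM and E2 lay just below those of DMSO (log2 changes -0.07 ± 0.05 and -0.15 ± 0.06, limma adjusted p = 0.472 and 0.23). SCAP, their escort, spanned 7.92 to 9.72 FPKM, with both ends in the E2 group.

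STARD4, which carries cholesterol between membranes, had 30.27, 27.96 and 26.60 FPKM with BPA 0.25 nM, 25.40, 26.02 and 24.86 with BPA 2500 nM, 27.63 and 34.30 with E2, and 31.50, 35.64 and 29.78 with DMSO. Only BPA 2500 nM was clear of DMSO, with a log2 change of -0.33 ± 0.09 that did not pass (limma adjusted p = 0.107). STARD4-AS1 lies on the opposite strand. Of the 6 genes of sterol sensing and transport, the log2 change was negative for 4 in the BPA 0.25 nM group, 4 in the BPA 2500 nM group and 6 in the E2 group (medians -0.014, -0.057 and -0.108). Over all loci the medians were 0.001, -0.027 and -0.007. Under the 18 alternatives the medians of the 6 genes lay between -0.029 and 0.002, -0.071 and -0.01, and -0.2 and -0.063. The BPA 2500 nM value nearest to 0 came from rescaling, and the lowest E2 value from leaving out E2 replicate 1.

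Long-chain fatty acids are activated to acyl-CoA before use. ACSL3, the acyl-CoA synthetase of lipid droplets, had 28.21, 23.86 and 27.60 FPKM with BPA 0.25 nM, 23.27, 27.01 and 24.43 with BPA 2500 nM, 24.04 and 21.46 with E2, and 29.50, 28.78 and 29.02 with DMSO. All treated libraries lay below all DMSO libraries, which were close together. The log2 changes were -0.13 ± 0.08, -0.22 ± 0.08 and -0.34 ± 0.09 (limma adjusted p = 0.641, 0.19 and 0.0989). ACSL4, which prefers arachidonate and whose locus also names KCNE5, lay below every DMSO library in both BPA groups (log2 changes -0.11 ± 0.10 and -0.21 ± 0.10) and had 9.19 and 12.52 FPKM with E2. ACSL1 had log2 changes of 0.04, 0.03 and 0.04, all with overlap.

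None of the oxidation genes was called. CPT1A, which controls the entry of long-chain fatty acids into mitochondria, had 27.06, 25.26 and 27.08 FPKM with BPA 0.25 nM, 26.78, 24.95 and 25.23 with BPA 2500 nM, 27.01 and 27.81 with E2, and 25.76, 25.92 and 26.94 with DMSO. Its log2 changes were 0.01, -0.03 and 0.06. HADHA had 71.38, 69.62 and 71.52 FPKM with BPA 0.25 nM, 64.96, 65.39 and 62.28 with BPA 2500 nM, 65.79 and 66.42 with E2, and 70.06, 62.75 and 68.43 with DMSO. The libraries of BPA 2500 nM lay below all those of BPA 0.25 nM for HADHA (log2 change between the doses -0.14 ± 0.05, limma adjusted p = 0.518), and both overlapped DMSO. HADHA and HADHB overlap on opposite strands. ACADVL, the very long chain acyl-CoA dehydrogenase gene, was high in DMSO replicate 3 at 50.36 FPKM, against 36.08 to 41.52 in the other 10 libraries.

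Of the 6 oxidation genes, the log2 change was positive for 4 in the BPA 0.25 nM group, 0 in the BPA 2500 nM group and 2 in the E2 group (medians 0.016, -0.072 and -0.022). Over all loci the medians were 0.001, -0.027 and -0.007, with 50.3%, 42.8% and 48.1% of loci positive. The BPA 2500 nM median of the 6 genes lay between -0.11 and -0.032 when a DMSO library was left out and was -0.023 after rescaling. The E2 median was 0.010 after rescaling, and 0.006 and -0.06 without DMSO replicate 1 or 2. The BPA 0.25 nM median lay between -0.002 and 0.045 under the 18 alternatives.

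**Figure D4:**
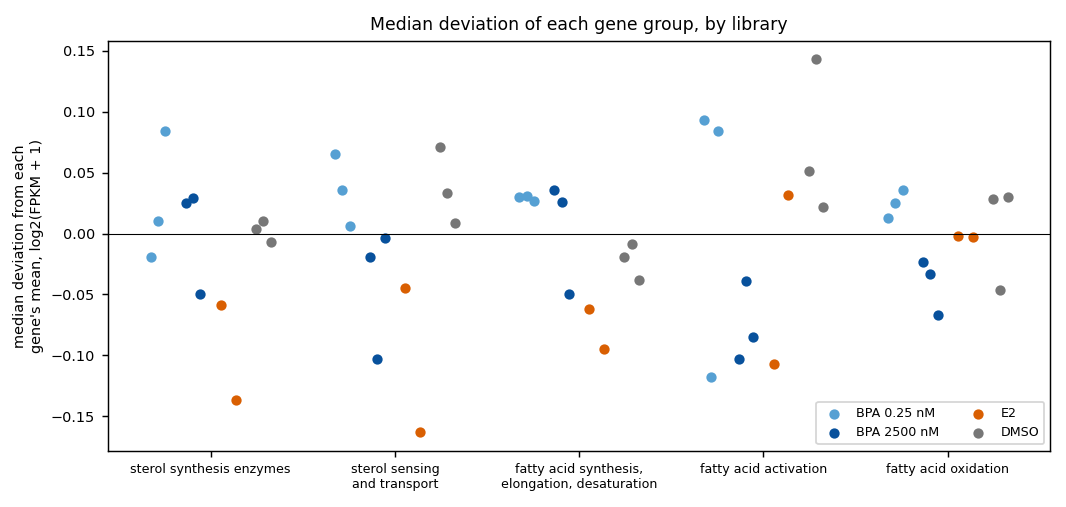
Median, over the genes of each role, of the deviation of log2(FPKM + 1) from each gene's mean over the 11 libraries; 1 point is 1 library. E2 replicate 2 is lowest for sterol synthesis (-0.137) and sterol sensing (-0.163). Both E2 libraries lie below all others for sterol synthesis (-0.137 and -0.059) and fatty acid synthesis (-0.095 and -0.062). The other groups lie within about 0.15 of 0. They overlap for sterol synthesis, while in each further role some of them are apart. For fatty acid synthesis, BPA 0.25 nM lies at 0.027 to 0.031 and DMSO at -0.038 to -0.009.

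Counts without a multiple-testing adjustment show how the 42 genes stood against the background. Unadjusted p was under 0.05 for 6 of the 42 with BPA 0.25 nM (9.11% of all loci), 10 with BPA 2500 nM (17.2%), 8 with E2 (15.4%) and 4 between BPA 2500 nM and BPA 0.25 nM (7.81%). All libraries of BPA 0.25 nM lay above all DMSO libraries for 10 of the 42 genes (9.01% of all loci) and below for 5 (8.05%). With BPA 2500 nM 5 lay above (9.54%) and 10 below (17.1%). With E2 4 lay above (12.2%) and 13 below (16.2%). The libraries of BPA 2500 nM lay above those of BPA 0.25 nM for 3 genes (4.66%) and below for 11 (12.0%). All these counts were taken without rescaling by the median of ratios.

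The direction of the 42 genes was mixed with BPA 0.25 nM, where 23 were positive and 19 negative (50.3% of all loci positive). With BPA 2500 nM 15 were positive and 27 negative (42.8% of all loci positive), with E2 11 and 31 (48.1%), and between the doses 7 and 35 (37.4%). The medians over the 42 genes were 0.016, -0.035, -0.062 and -0.057, beside 0.001, -0.027, -0.007 and -0.03 over all loci. After rescaling by the median of ratios the medians over all loci were 0.008, 0.0142, 0.02 and 0.0032. The signs of the 42 genes were not counted again on that scale. E2 replicate 2 held the lowest value of 17 of the 42 genes and the highest of 7, against 3 and 2 in E2 replicate 1; the part of this library in the E2 counts was not tested. Among all loci called, 49 were higher and 109 lower with BPA 2500 nM, but 102 and 61 after rescaling, and 20 were higher and 31 lower with E2, but 28 and 20 after rescaling.

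The remaining genes of the pathway were read from 3 further lists. In sterol uptake, efflux and storage, 17 of 22 genes were tested. Of these, 1 was called with BPA 2500 nM (1.3% of all loci), 1 with E2 (0.419%) and 0 with BPA 0.25 nM (0.0164%). The called gene was the same and was lower in both cases. This was LRP1, a large endocytic receptor for lipoproteins, at 3.32, 3.39 and 3.27 FPKM with BPA 0.25 nM, 2.82, 2.82 and 2.99 with BPA 2500 nM, 2.73 and 2.56 with E2, and 3.81, 3.94 and 3.53 with DMSO. Every treated library lay below every DMSO library. The log2 changes with BPA 2500 nM and E2 were -0.30 ± 0.05 and -0.38 ± 0.06 (limma adjusted p = 0.0336 and 0.0334), and -0.14 ± 0.05 with BPA 0.25 nM did not pass (limma adjusted p = 0.5). LRP1 overlaps STAT6 on the opposite strand. Of the 11 fits without 1 library, the BPA 2500 nM call was kept in 3 (without DMSO replicate 3 or E2 replicate 1 or 2; the highest limma adjusted p was 0.133, without BPA 2500 nM replicate 1) and the E2 call in 1 (without E2 replicate 1; the highest was 0.112, without DMSO replicate 1 or E2 replicate 2). The LRP1 calls were also lost with no filter on low values (limma adjusted p = 0.0911 for BPA 2500 nM and 0.0642 for E2) and with only the compared groups fitted (0.094 and 0.297), and that for BPA 2500 nM with rescaling (0.0523).

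In fatty acid synthesis and lipid assembly 24 of 24 genes were tested, and in fatty acid oxidation and release 24 of 29. In either list 0 were called in the 3 comparisons with DMSO or between the doses. Of all loci, 0.0164% were called with BPA 0.25 nM, 1.3% with BPA 2500 nM, 0.419% with E2 and 0.0657% between the doses. The genes described here are those with the 2 smallest p in each list and comparison with DMSO.

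In the synthesis and assembly list, LPIN2, a phosphatidate phosphatase, had 8.83, 8.14 and 8.37 FPKM with BPA 0.25 nM, 8.0, 8.24 and 7.83 with BPA 2500 nM, 7.56 and 8.35 with E2, and 8.87, 9.37 and 9.53 with DMSO. ME1, which supplies NADPH, had 20.71, 20.82 and 20.72 FPKM with BPA 0.25 nM, 19.34, 19.79 and 19.44 with BPA 2500 nM, 20.01 and 22.50 with E2, and 23.02, 22.46 and 21.09 with DMSO. Both genes lay below all DMSO libraries at both BPA doses, and their log2 changes with BPA 2500 nM were -0.19 ± 0.05 and -0.18 ± 0.05 (limma adjusted p = 0.124 and 0.13). With E2, LPIN2 also lay below all DMSO libraries (-0.197 ± 0.059, limma adjusted p = 0.155), while ME1 overlapped them. ACSS2, which makes acetyl-CoA from acetate, had 12.69, 12.65 and 12.58 FPKM with BPA 0.25 nM, 10.84, 11.52 and 11.22 with BPA 2500 nM, 9.94 and 10.25 with E2, and 11.30, 12.85 and 12.71 with DMSO. AGPAT1, which acylates lysophosphatidate, had 18.86, 20.54 and 18.57 FPKM with BPA 0.25 nM, 18.59, 17.70 and 16.97 with BPA 2500 nM, 17.72 and 15.84 with E2, and 19.05, 20.05 and 20.54 with DMSO. The E2 libraries of both were below those of DMSO, with log2 changes of -0.26 ± 0.06 and -0.23 ± 0.07 (limma adjusted p = 0.0783 and 0.147). With BPA 2500 nM, AGPAT1 was also below all DMSO libraries (-0.155 ± 0.061, limma adjusted p = 0.236), while ACSS2 overlapped them. ACSS2 overlaps GGT7, and AGPAT1 overlaps PPT2 and EGFL8, on the opposite strand.

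In the oxidation and release list, CRAT, the carnitine acetyltransferase, had 8.98, 9.01 and 8.69 FPKM with BPA 0.25 nM, 8.51, 8.0 and 8.78 with BPA 2500 nM, 8.22 and 7.28 with E2, and 10.06, 9.57 and 9.44 with DMSO. Every treated library lay below every DMSO library. Its log2 changes were -0.11 ± 0.06, -0.18 ± 0.06 and -0.29 ± 0.06 with BPA 0.25 nM, BPA 2500 nM and E2 (limma adjusted p = 0.58, 0.144 and 0.0716), and the E2 change passed without E2 replicate 1 (0.0379). PPARD, a nuclear receptor for fatty acids, had 9.82, 10.90 and 9.96 FPKM with BPA 0.25 nM, 9.47, 9.76 and 8.72 with BPA 2500 nM, 8.86 and 8.03 with E2, and 10.56, 10.59 and 10.52 with DMSO. ACADS, the short-chain acyl-CoA dehydrogenase gene, had 7.26, 7.4 and 7.97 FPKM with BPA 0.25 nM, 5.96, 6.77 and 6.77 with BPA 2500 nM, 6.73 and 5.72 with E2, and 8.07, 7.73 and 7.43 with DMSO. Both were below DMSO without overlap in the BPA 2500 nM and E2 groups; the log2 change of PPARD with E2 was -0.29 ± 0.07 (limma adjusted p = 0.0771) and that of ACADS with BPA 2500 nM -0.22 ± 0.07 (limma adjusted p = 0.155). ACAA1, a peroxisomal thiolase, had 5.12, 6.02 and 4.95 FPKM with BPA 0.25 nM, 5.21, 4.95 and 4.81 with BPA 2500 nM, 4.32 and 4.03 with E2, and 4.0, 4.07 and 5.50 with DMSO. DMSO replicate 3 was high, and the BPA 0.25 nM change of 0.21 ± 0.10 did not pass (limma adjusted p = 0.576).

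MBTPS2, of the sterol uptake list, encodes the protease that releases SREBP from the membrane. It had 3.94, 4.09 and 4.0 FPKM with BPA 0.25 nM, 3.83, 3.97 and 3.48 with BPA 2500 nM, 4.23 and 4.71 with E2, and 4.67, 4.64 and 4.24 with DMSO. Both BPA groups lay below the DMSO libraries, and the BPA 2500 nM change of -0.21 ± 0.06 did not pass (limma adjusted p = 0.12). The locus also names YY2.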

How the data were processed

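Total RNA of IOSE80 cells was sequenced on an Illumina instrument, per the labels' protocols. The authors deposited 1 FPKM value per locus and library, to 2 decimals. The submitters' processing notes list HISAT, UMI-tools, StringTie and edgeR without versions and name hg19; the coordinates are those of GRCh38 (74.8% of 14123 Ensembl loci have the same start and end in GENCODE 29). Depth is unknown, so precision comes from the spread between libraries.

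From these values, the 12182 loci that reached 1 FPKM in 2 or more libraries were tested as log2(FPKM + 1) with limma 3.58.1 (R 4.3.3, statmod 1.5.0), 1 mean per group over all 11 libraries, trend and robust settings, 7 residual degrees of freedom and 2.4 prior ones (median). Two-sided p-values had Benjamini-Hochberg adjustment over all loci in each of 4 comparisons, with a threshold of 0.05. The script was tested on simulated data. Tables were made with pandas 2.3.3 and numpy 2.4.6 in Python 3.11.15, and figures with matplotlib 3.10.9.

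The genes, lists and tests were chosen with earlier results of these data known. Values per library are given for genes called in any comparison, for the 5 smallest p per DMSO comparison with under 5 calls, and for a panel of 12 genes; of the other pathway genes, for called ones or the 2 smallest p per list. Genes named outside this rule were chosen after their values were seen. 6 of the 42 loci also name another coding gene (CYP51A1, TM7SF2, EBP, FADS2, ACSL4 and ACADM), and 16 lie opposite a locus of at least 1 FPKM. Alternatives were 7 other settings and 11 fits without 1 library.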

Additional observations from a re-analysis of the deposited data

How the results depend on the processing

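Of the 42 genes, the 1 call for BPA 2500 nM (SCD) became 0 with no filter on low values, when the fit held only the groups compared, with no trend or robust setting and with a replicate block, and was 0 to 1 without 1 library; after rescaling by the median of ratios the 1 call was ACAT2 and SCD missed the threshold (limma adjusted p 0.095). The 1 call for E2 (SCD) became 0 with those 4 settings and with rescaling, and was 0 in every fit without 1 library. SCD kept its sign under all 18 alternatives. With the replicate block LRP1 was not called either (limma adjusted p 0.089 for BPA 2500 nM and 0.109 for E2).

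Calls over all loci for BPA 0.25 nM (2) became 0 with a mean FPKM of at least 5, 9 with only the groups compared, 1 with no trend or robust setting, 1 with the replicate block and 0 to 9 without 1 library. For BPA 2500 nM (158) they were 39 with no filter, 102 with a mean of at least 5, 13 with only the groups compared, 38 with the block and 32 to 251 without 1 library. For E2 (51) they were 33 with no filter, 2 with only the groups compared, 5 with the block and 7 to 189 without 1 library. For BPA 2500 nM against BPA 0.25 nM (8) they were 2 with rescaling, 3 with only the groups compared, 3 with no trend or robust setting, 3 with the block and 2 to 10 without 1 library. The causes were not tested.

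Replicate numbers did not pair the libraries: residuals of 15 same-number pairs correlated at -0.117 to 0.164, 1 of them over 0.1, and those of 30 other pairs at -0.164 to 0.166.

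Of 75 log2 changes of named genes under the alternatives, 26 of 1344 values had the opposite sign, all of uncalled changes. With rescaling these were CPT1A with BPA 2500 nM (0.018), HADHA with E2 (0.013) and FASN between the BPA doses (0.033). The other 23 arose without 1 library. Over those fits the BPA 0.25 nM change lay between -0.345 and 0.121 for HMGCS1, -0.063 and 0.026 for SQLE, -0.049 and 0.007 for SREBF2, and -0.003 and 0.045 for CPT1A. The BPA 2500 nM change lay between -0.461 and 0.006 for HMGCS1, -0.027 and 0.055 for SREBF1, and -0.03 and 0.16 for FADS2. The E2 change lay between -0.456 and 0.011 for HMGCS1, -0.164 and 0.04 for SREBF1, -0.123 and 0.041 for FASN, -0.106 and 0.039 for ACACA, -0.142 and 0.05 for FADS2, and -0.066 and 0.012 for HADHA. Between the doses it lay between -0.26 and 0.168 for INSIG1, -0.026 and 0.007 for FASN, and -0.2 and 0.026 for FADS2. Leaving out E2 replicate 1 or 2 moved the E2 median of fatty acid activation (-0.038) to 0.058 or -0.242.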
